A study of Mus musculus with 12 samples.

Results

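The ligand genes of the PDGF and VEGF families were picked out of the count table by their gene symbols, without use of any measured value. They were Pdgfa, Pdgfb, Pdgfc, Pdgfd, Vegfa, Vegfb, Vegfc and Pgf, 8 of the 55376 symbols in the table. RNA-Seq had been performed on live CD45- O1+ cells sorted from the brain of C57BL/6 mice at postnatal day 40, with the cells of 2 brains pooled in each of 12 samples. O1 is a galactolipid antigen on the surface of oligodendrocytes, the myelin-forming cells of the brain, and CD45 marks blood-derived cells and microglia. The 4 wild-type samples bore the replicate numbers 1, 3, 5 and 6. The 4 Cnp-Cre:Jab1flfl samples, numbered 1 to 4, came from mice in which both floxed copies of Jab1 (Cops5, a subunit of the COP9 signalosome) are removed by Cre. The 4 p21-/- Cnp-Cre:Jab1flfl samples, numbered 1, 2, 3 and 5, came from mice that in addition carry no functional p21 (Cdkn1a, an inhibitor of cyclin-dependent kinases). The Cnp promoter drives Cre in late oligodendrocyte precursors, in oligodendrocytes and also in Schwann cells, whereas p21 is missing from every cell of the double mutants. No p21-/- mice with intact Jab1 were in this comparison, and the sources used here do not give whether the wild-type mice carried Cre or a floxed allele.

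Total counts ranged from 61485556 to 153495112 per sample, so that 1 unit of CPM, the count normalised to the library total, stood for 67.9 to 155 counts. The markers of mature oligodendrocytes were high in every sample, with the 10 markers summing to between 8999 CPM in Cnp-Cre:Jab1flfl sample 3 and 105700 CPM in wild-type sample 5. Wild-type sample 5 stood apart from the other wild-type samples, which summed to 45140 to 51970 CPM. Markers of other cells were present in all libraries. The 12 microglia markers summed to 94.2 to 261 CPM in the wild-type samples, to 953 to 2341 CPM in the Cnp-Cre:Jab1flfl samples and to 330 to 17070 CPM in the double mutants, where sample 3 held the highest sum although the sort excluded CD45+ cells. Cops5 was at 46.3 to 133 CPM in wild-type, 45.0 to 89.0 CPM in Cnp-Cre:Jab1flfl and 44.2 to 90.4 CPM in double mutant samples, and its log2 fold change in Cnp-Cre:Jab1flfl against wild-type did not pass the threshold (-0.62 ± 0.36, SE, edgeR adjusted p = 0.349). Cdkn1a was at 16.0 to 85.3 CPM in wild-type, 379 to 637 CPM in Cnp-Cre:Jab1flfl and 64.7 to 103 CPM in p21-/- Cnp-Cre:Jab1flfl samples. It rose in Cnp-Cre:Jab1flfl against wild-type (log2 fold change 3.44 ± 0.53, SE, edgeR adjusted p = 0.0044), and the log2 fold change between the mutants was -2.36 ± 0.32 (edgeR adjusted p = 0.0916). The counts are sums over all exons of a gene and do not separate the removed exons, so neither gene is a complete check of its deletion.

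PDGF and VEGF ligands are secreted dimers that share a cystine-knot fold and act on receptor tyrosine kinases. PDGF-A is the classical mitogen of oligodendrocyte precursors and acts through PDGF receptor alpha, whereas PDGF-B released by endothelial cells recruits pericytes, which carry PDGF receptor beta. VEGF-A, induced by hypoxia, drives vessel growth through KDR, VEGF-B and placental growth factor (Pgf) bind FLT1, and VEGF-C acts mainly on the lymphatic receptor FLT4.

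The coding stretch that gives the family its signature is shown for all 8 ligands, because the cysteines in it form part of the cystine knot by which the members are recognised. It was read from the GENCODE transcripts of GRCm38, on the coding strand, 5′ to 3′, with the cysteine codons in capitals. The stretch was found with a pattern that required 4 cysteines and allowed additional codons between the last of them. Its cysteine count was therefore fixed by the search. For Pdgfd, 2 of 3 complete coding transcripts held the stretch, and for every other ligand all did. In each ligand the stretch lay in 1 coding exon. It spanned 39 bases in 6 ligands and 45 bases in Pdgfc and Pdgfd, in which additional codons separate the last cysteines.
Pdgfa: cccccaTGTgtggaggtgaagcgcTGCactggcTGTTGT
Pdgfb: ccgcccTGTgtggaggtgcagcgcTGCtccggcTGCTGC
Pdgfc: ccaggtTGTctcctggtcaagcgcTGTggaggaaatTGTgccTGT
Pdgfd: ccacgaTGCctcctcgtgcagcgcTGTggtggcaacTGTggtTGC
Vegfa: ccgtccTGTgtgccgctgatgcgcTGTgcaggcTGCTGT
Vegfb: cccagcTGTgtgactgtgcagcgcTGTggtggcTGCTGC
Vegfc: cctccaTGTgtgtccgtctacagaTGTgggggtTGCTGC
Pgf: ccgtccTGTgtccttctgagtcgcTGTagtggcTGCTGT

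The Pdgfb stretch lies in exon 4 of the minus-strand gene at chr15:80001736-80001774, and the Pdgfa stretch in exon 4 at chr5:138986244-138986282, also on the minus strand. The Pdgfc stretch lies in exon 5 at chr3:81209154-81209198 and the Pdgfd stretch in exon 6 at chr9:6359810-6359854, both on the plus strand. Those of the VEGF ligands all lie in exon 3, at chr17:46025401-46025439 (minus) for Vegfa, chr19:6986344-6986382 (minus) for Vegfb, chr8:54159391-54159429 (plus) for Vegfc and chr12:85171714-85171752 (minus) for Pgf. The counts are per gene and do not report on this stretch by itself.

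To describe the ligand levels of the sorted samples, levels were first compared between genes per length, as CPM per kb of exonic length. These samples also held markers of other cells. In wild-type samples the astrocyte markers summed to 5226 to 11810 CPM and the choroid plexus markers to 286 to 4013 CPM. Which cells the ligand RNA came from was not tested. In wild-type samples Vegfa was the highest of the 8 ligands (52.0 ± 17.7 CPM per kb, SD, n = 4), followed by Vegfb (34.6 ± 7.79) and Pdgfa (19.7 ± 6.61). These levels overlapped between neighbours, but Pdgfa lay above Pgf (6.96 ± 2.91) in every sample. Below Pgf came Pdgfd (4.87 ± 1.63), Pdgfc (2.94 ± 1.11), Pdgfb (1.63 ± 0.505) and Vegfc (0.710 ± 0.755 CPM per kb), and of these neighbours Pdgfc and Pdgfb alone did not overlap, by a narrow margin (lowest Pdgfc 2.09, highest Pdgfb 2.08 CPM per kb). The VEGF ligands together summed to 94.2 ± 26.7 CPM per kb in wild-type samples, against 29.2 ± 5.79 CPM per kb for the PDGF ligands.

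The order differed in the mutants at the position of Pdgfb, which was the seventh ligand by level in wild-type samples and the fourth in both mutant genotypes. In Cnp-Cre:Jab1flfl samples Pdgfb was at 14.8 ± 7.19 CPM per kb (SD, n = 4), overlapping with Vegfb above it (23.9 ± 3.64) and Pgf below it (6.70 ± 3.47). It made up 32.5% ± 14.7 of the summed PDGF ligand level there, 21.1% ± 12.9 in the double mutants and 5.98% ± 2.77 in wild-type samples (SD, n = 4 each). Pdgfc was the sixth in wild-type samples and the last in both mutant genotypes, and its share of the PDGF sum was 9.96% ± 2.31, 1.74% ± 1.18 and 3.26% ± 2.90 in the wild-type, Cnp-Cre:Jab1flfl and double mutant samples. The order of the 3 leading ligands rests on levels whose samples overlap, except that in the Cnp-Cre:Jab1flfl samples the lowest Vegfa level (33.9 CPM per kb) lay above the highest of Pdgfa (33.4) and of Vegfb (27.4).

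**Figure D1:**
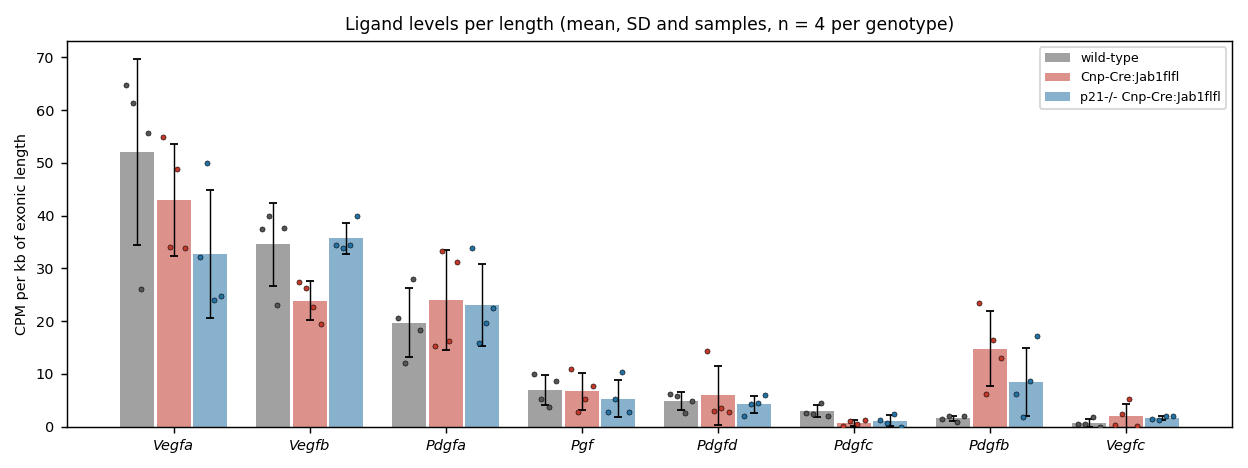
Levels of the 8 ligand genes in CPM per kb of exonic length (linear axis from 0), ordered by their wild-type mean; bars are means, error bars SD and points samples, n = 4 per genotype. Vegfa, Vegfb and Pdgfa lead in all 3 genotypes, and Pdgfb is the seventh in wild-type and the fourth in both mutant genotypes.

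Of the 8 ligands, Pdgfb changed when Cnp-Cre:Jab1flfl was compared with wild-type, and it rose 9.11-fold. It was at 4.27, 5.85, 2.93 and 6.12 CPM in wild-type samples 1, 3, 5 and 6, and at 69.2, 18.4, 48.6 and 38.4 CPM in Cnp-Cre:Jab1flfl samples 1 to 4. Every Cnp-Cre:Jab1flfl sample lay above every wild-type sample, and sample 2 was the lowest of the mutants. The log2 fold change was 3.19 ± 0.47 (SE, 95% confidence interval 2.16 to 4.22, edgeR adjusted p = 0.0038), and without wild-type sample 5 it was 3.01 (edgeR adjusted p = 0.013). So 1 of 8 ligands passed the threshold, higher, whereas 7.64% of the 17716 genes tested did in either direction and 5.19% were higher. DESeq2 and limma-voom also called 1 of 8, beside 15.2% and 10.8% of all genes. At an unadjusted p under 0.05 the count was 2 of 8, near the 22.5% of all genes, and whichever of the 8 samples was left out, 1 ligand passed. The median log2 fold change of the ligands was 0.11, beside 0.02 over all genes tested.

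Between wild-type and Cnp-Cre:Jab1flfl samples, markers of vascular cells and microglia shifted in the same direction as Pdgfb. Within a genotype they did not all follow it. Wild-type sample 5, the lowest in Pdgfb, was the highest of its group in microglia markers (261 CPM). Cnp-Cre:Jab1flfl sample 4 was the highest of its group in microglia and mural markers but not in Pdgfb. The 8 endothelial markers summed to 266 to 594 CPM in wild-type samples and to 4267, 579, 1705 and 2964 CPM in Cnp-Cre:Jab1flfl samples 1 to 4, so the mutant sample lowest in Pdgfb was also the lowest in endothelial markers, and the sample highest in Pdgfb the highest. Of these markers 5 of 8 rose. Of 8 mural markers 4 rose, with sums of 191 to 350 CPM in wild-type and 909 to 1646 CPM in Cnp-Cre:Jab1flfl samples. The log2 fold change was above 0 in 7 of them and below 0 in 1. Pdgfrb, a gene of mural cells outside this list, did not pass the threshold (log2 fold change -0.05, edgeR adjusted p = 0.966). All 12 microglia markers rose. Of all genes tested, 5.19% passed the threshold higher and 2.46% lower. None of the endothelial, mural and microglia markers was at 0 in all samples of a genotype. Choroid plexus markers, with sums of 286 to 4013 CPM in wild-type and 6389 to 24250 CPM in Cnp-Cre:Jab1flfl samples, moved the same way (1 of 5 rose), and 7 of the 10 mature oligodendrocyte markers fell. Set against the endothelial sum, Pdgfb amounted to 7.19 to 12.8 CPM per 1000 CPM of endothelial markers in wild-type samples and to 13.0 to 31.8 in Cnp-Cre:Jab1flfl samples, and against the mural sum to 11.8 to 32.0 and 20.3 to 64.8. The part of these cells in the Pdgfb result was not tested. In bulk RNA from sorted cells, fewer cells of a type and less RNA per cell cannot be told apart.

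**Figure D2:**
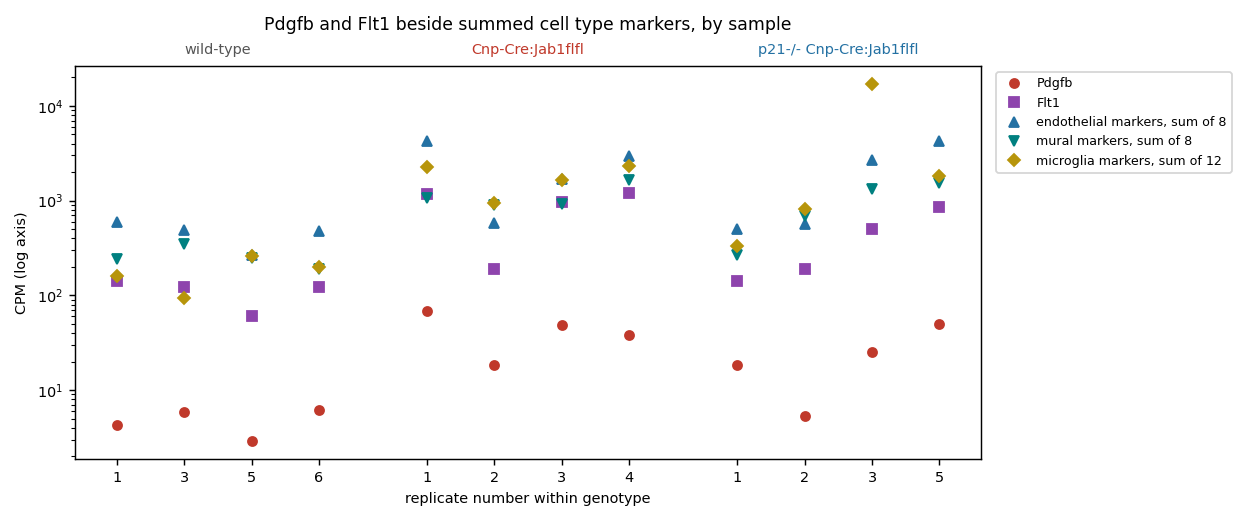
Pdgfb and Flt1 beside the summed endothelial, mural and microglia markers in each of the 12 samples, in CPM on a log axis, by replicate number within genotype. Among the Cnp-Cre:Jab1flfl samples, sample 2 is lowest in Pdgfb (18.4 CPM), in Flt1 (190 CPM) and in the endothelial sum (579 CPM); double mutant sample 3 holds the highest microglia sum (17070 CPM).

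Pdgfc, a latent ligand that needs proteolytic release of its CUB domain, was lower in every Cnp-Cre:Jab1flfl sample than in any wild-type sample, but the difference did not pass the threshold. It was at 9.18, 8.79, 16.1 and 7.35 CPM in wild-type samples 1, 3, 5 and 6 and at 0.217, 4.10, 2.13 and 4.34 CPM in Cnp-Cre:Jab1flfl samples 1 to 4. The log2 fold change was -1.94 ± 0.81 (SE, 95% confidence interval -3.71 to -0.16, edgeR adjusted p = 0.182), and a two-sided exact permutation test of the mean log2(CPM + 1) gave p = 0.0286, the smallest value that 4 against 4 samples allow. The groups did not overlap for 2 of the 8 ligands, Pdgfb and Pdgfc, beside 17.1% of all genes tested. Pdgfc shares 147 exonic bases with Gm16000 on the opposite strand, and since the strand setting of the counting is not given, reads there cannot be assigned to either gene.

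The other PDGF ligands did not pass the threshold in Cnp-Cre:Jab1flfl. Pdgfa was at 60.5, 35.4, 82.5 and 53.9 CPM in wild-type samples 1, 3, 5 and 6 and at 45.1, 98.1, 47.8 and 91.6 CPM in Cnp-Cre:Jab1flfl samples 1 to 4, groups that overlapped throughout (log2 fold change 0.28, 95% confidence interval -0.51 to 1.08, edgeR adjusted p = 0.709). It shares 813 exonic bases with 6330403L08Rik on the opposite strand, so its counts may include reads of that gene. Pdgfd, which like Pdgfc is secreted as a latent factor, was at 19.4, 18.7, 8.15 and 15.2 CPM in wild-type and at 45.4, 9.40, 11.3 and 9.09 CPM in Cnp-Cre:Jab1flfl samples. Mutant sample 1 alone lay above the wild-type samples, and the others lay within their range. The log2 fold change of Pdgfd was 0.29 (95% confidence interval -0.98 to 1.56, edgeR adjusted p = 0.824), and without Cnp-Cre:Jab1flfl sample 1 it was -0.63 (edgeR adjusted p = 0.488).

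None of the 4 VEGF ligands passed the threshold in Cnp-Cre:Jab1flfl against wild-type. Vegfa was at 228, 216, 92.1 and 196 CPM in wild-type samples 1, 3, 5 and 6 and at 193, 120, 172 and 120 CPM in Cnp-Cre:Jab1flfl samples 1 to 4, with 3 wild-type samples above all mutant samples and wild-type sample 5 below them. Its log2 fold change was -0.28 (95% confidence interval -1.02 to 0.46, edgeR adjusted p = 0.693), and without wild-type sample 5 it was -0.50 (edgeR adjusted p = 0.439). Vegfb was at 48.1, 51.3, 29.5 and 48.3 CPM in wild-type and at 35.1, 33.6, 29.0 and 24.8 CPM in Cnp-Cre:Jab1flfl samples. Here too wild-type sample 5 alone reached into the range of the mutants, and the log2 fold change was -0.53 (95% confidence interval -1.17 to 0.11, edgeR adjusted p = 0.317), or -0.68 without that sample (edgeR adjusted p = 0.255). Wild-type sample 5 was also the lowest of its group in astrocyte markers, at 5226 CPM beside 9069 to 11810 CPM in the others (sum of 8 markers). It was likewise the lowest in oligodendrocyte progenitor (395 CPM), endothelial (266 CPM), choroid plexus (286 CPM) and neuron markers (55.5 CPM). In mature oligodendrocyte (105700 CPM) and microglia markers (261 CPM) it was the highest, and in mural markers it lay within the range of the others. The part of these differences in the Vegfa and Vegfb values was not tested.

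Vegfc was the most uneven of the VEGF ligands within these genotypes. It was at 1.08, 1.47, 4.36 and 0.043 CPM in wild-type and at 0.611, 5.93, 12.8 and 0.336 CPM in Cnp-Cre:Jab1flfl samples, with as few as 4 counts in wild-type sample 6, and the 2 genotypes overlapped (log2 fold change 1.50, 95% confidence interval -1.41 to 4.42, edgeR adjusted p = 0.561). Without Cnp-Cre:Jab1flfl sample 3 it was 0.40 (edgeR adjusted p = 0.91), and without wild-type sample 5 it was 2.51 (edgeR adjusted p = 0.432). Pgf was at 20.8, 11.0, 7.86 and 18.2 CPM in wild-type and at 22.8, 5.97, 10.8 and 16.2 CPM in Cnp-Cre:Jab1flfl samples, ranges that largely coincided. Its log2 fold change was -0.06 (95% confidence interval -1.17 to 1.06, edgeR adjusted p = 0.965).

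**Figure D3:**
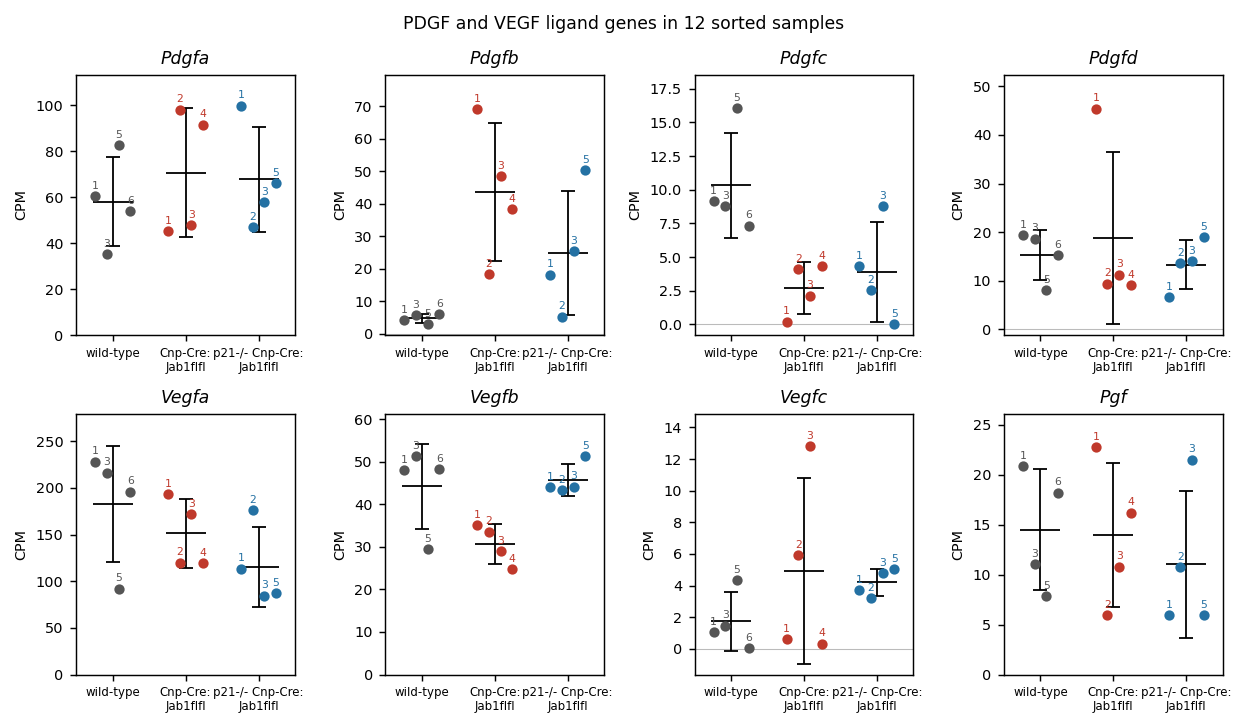
CPM of the 8 ligand genes in each of the 12 samples (linear axes), by genotype; horizontal lines are means, error bars SD (n = 4) and numbers the replicate numbers. In Pdgfb all 4 Cnp-Cre:Jab1flfl samples (18.4 to 69.2 CPM) lie above all wild-type samples (2.93 to 6.12 CPM), and in Pdgfc all lie below them.

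The p21-/- Cnp-Cre:Jab1flfl samples were next compared with wild-type, to ask which ligand levels differed from the control once p21 was also missing. No ligand passed the threshold (0 of 8 by edgeR, beside 0.192% of all genes tested). At an unadjusted p under 0.05 the count was 1 of 8, beside 12.4% of all genes. DESeq2 called 1 of 8 (4.87% of all genes) and limma-voom 0 of 8 (0.265%). Pdgfb was at 18.3, 5.36, 25.6 and 50.4 CPM in double mutant samples 1, 2, 3 and 5. Of the double mutant samples 3 lay above all wild-type samples, and sample 2 lay within their range. The log2 fold change was 2.37 ± 0.63 (SE, 95% confidence interval 0.98 to 3.76, edgeR adjusted p = 0.169). DESeq2 called this difference (adjusted p = 0.00493), and the other alternatives gave p-values from 0.073 to 0.504. Without sample 3, the sample with the highest microglia markers, it was 2.37 (edgeR adjusted p = 0.276), and without sample 5, the highest in Pdgfb and in endothelial markers, it was 1.76 (edgeR adjusted p = 0.373).

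The endothelial markers again varied along with Pdgfb. They summed to 496, 570, 2651 and 4297 CPM in double mutant samples 1, 2, 3 and 5, and the mural markers to 265, 683, 1325 and 1552 CPM, so sample 5 was highest in both sums and in Pdgfb. Sample 1 departed from this order, with 18.3 CPM of Pdgfb beside endothelial and mural sums within the wild-type ranges. Per 1000 CPM of endothelial markers Pdgfb amounted to 36.9 CPM there, the highest of all samples, whereas the lowest double mutant sample was at 9.39. In double mutants against wild-type 7 of the 8 endothelial and 3 of the 8 mural markers had an unadjusted p under 0.05 (12.4% of all genes), with median log2 fold changes of 2.05 and 1.84, but none passed the threshold after adjustment by edgeR. Their part in the Pdgfb values was not tested.

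The remaining ligands of the double mutants overlapped with wild-type in every case (no ligand without overlap, beside 8.1% of all genes tested). Vegfa was at 114, 176, 84.7 and 87.3 CPM in double mutant samples 1, 2, 3 and 5, all below the 3 higher wild-type samples and 2 of them below wild-type sample 5 (log2 fold change -0.68, 95% confidence interval -1.49 to 0.13, edgeR adjusted p = 0.489). Pdgfc was at 4.30, 2.56 and 8.79 CPM in samples 1, 2 and 3 and had no count in sample 5, which allows a level of up to 0.0314 CPM (3 counts, counting error only). Its log2 fold change was -1.41 (95% confidence interval -4.07 to 1.25, edgeR adjusted p = 0.674). Vegfc had a narrow range in the double mutants, 3.22 to 5.04 CPM, inside the 0.336 to 12.8 CPM of the Cnp-Cre:Jab1flfl samples, and differed from wild-type by a log2 fold change of 1.26 (95% confidence interval -1.04 to 3.56, edgeR adjusted p = 0.662), or 2.30 without wild-type sample 5 (edgeR adjusted p = 0.559). For Pdgfa (46.9 to 99.8 CPM), Pdgfd (6.61 to 19.0 CPM), Vegfb (43.3 to 51.3 CPM) and Pgf (5.92 to 21.5 CPM) the log2 fold changes were 0.21, -0.21, 0.04 and -0.40, with edgeR adjusted p-values from 0.808 to 0.974.

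The last comparison, of p21-/- Cnp-Cre:Jab1flfl with Cnp-Cre:Jab1flfl, asked what the loss of p21 changed on the Jab1 mutant background. No ligand passed the threshold by edgeR (0 of 8), and neither did any of the 17716 genes tested (0%). At an unadjusted p under 0.05 the count was 0 of 8, beside 5.0% of all genes. DESeq2 and limma-voom also called 0 of 8, beside 0.491% and 0.00564% of all genes. For Pdgfb the log2 fold change was -0.81 (95% confidence interval -2.16 to 0.54, edgeR adjusted p = 0.996), an interval that holds both no change and a fall of more than 2 log2 units. The mean levels of Pdgfb were 43.7 ± 21.2 CPM in Cnp-Cre:Jab1flfl, 24.9 ± 19.0 CPM in double mutant and 4.79 ± 1.49 CPM in wild-type samples (SD, n = 4 each). Vegfb was the 1 ligand of 8 whose samples did not overlap between the mutants, beside 3.22% of all genes tested, with 44.1, 43.3, 44.2 and 51.3 CPM in double mutant samples 1, 2, 3 and 5. All lay above the 24.8 to 35.1 CPM of the Cnp-Cre:Jab1flfl samples, but the log2 fold change of 0.58 (95% confidence interval -0.04 to 1.20, edgeR adjusted p = 0.968) did not pass the threshold. A two-sided exact permutation test of Vegfb gave p = 0.0286, the smallest value possible. The other 6 ligands had log2 fold changes between -0.50 and 0.54 with edgeR adjusted p-values of 0.996 and above.

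**Figure D4:**
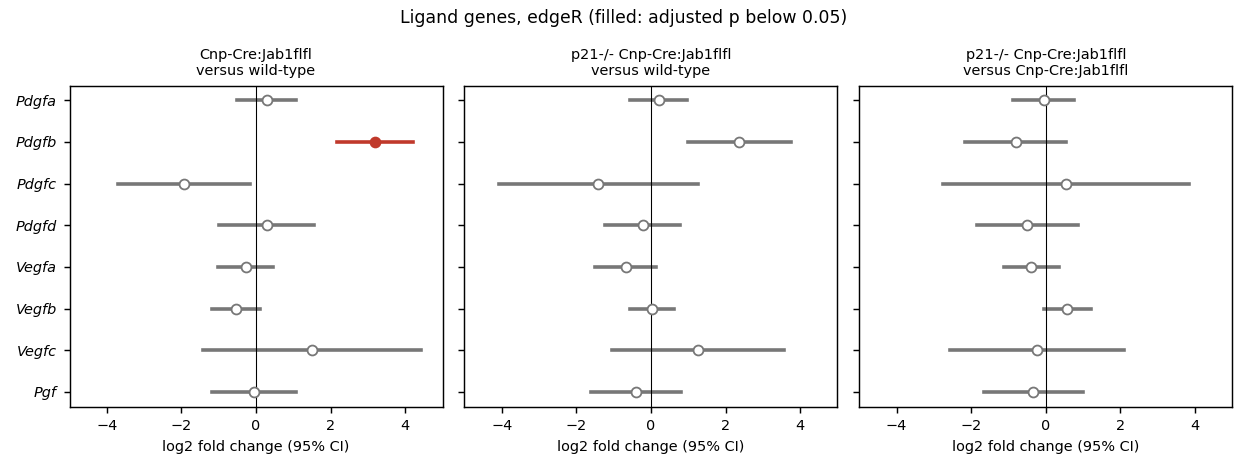
Log2 fold changes of the 8 ligand genes (points) with 95% confidence intervals (lines) from edgeR in the 3 comparisons; filled points mark an adjusted p below 0.05. Pdgfb in Cnp-Cre:Jab1flfl versus wild-type (3.19) is the only filled point; the interval of Pdgfb in double mutants versus wild-type (0.98 to 3.76) lies above 0 with an adjusted p of 0.169.

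The receptors of these ligands were examined in the same samples. In Cnp-Cre:Jab1flfl against wild-type, 3 of the 8 receptor and co-receptor genes rose, beside 5.19% of all genes, none fell and 5 did not pass the threshold, with a median log2 fold change of 1.89 beside 0.02 over all genes. Flt1, the receptor bound by VEGF-A, VEGF-B and Pgf, was at 142, 121, 61.2 and 123 CPM in wild-type samples 1, 3, 5 and 6 and at 1184, 190, 966 and 1204 CPM in Cnp-Cre:Jab1flfl samples 1 to 4. All mutant samples were higher, with sample 2 far below the others (log2 fold change 2.98 ± 0.54, SE, edgeR adjusted p = 0.00901). Of the Cnp-Cre:Jab1flfl samples, sample 2 was lowest in Pdgfb and in endothelial, mural, microglia and choroid plexus markers. It was highest in mature oligodendrocyte markers (35140 CPM). The part of these cells in the receptor values was not tested. Per 1000 CPM of endothelial markers, Flt1 was at 230 to 258 CPM in wild-type and 278 to 567 CPM in Cnp-Cre:Jab1flfl samples. Nrp2, a neuropilin co-receptor, was at 7.97 to 11.8 CPM in wild-type and 24.5 to 67.9 CPM in Cnp-Cre:Jab1flfl samples, without overlap (log2 fold change 1.97 ± 0.39, SE, edgeR adjusted p = 0.0136). Nrp1, the other neuropilin, was at 23.7 to 70.3 CPM and 65.5 to 134 CPM, with an overlap through wild-type sample 3 and mutant sample 2 (log2 fold change 1.39 ± 0.38, SE, edgeR adjusted p = 0.0472), and did not pass the threshold under 9 of 17 alternatives.

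The main VEGF-A receptor Kdr was at 23.6 to 32.9 CPM in wild-type samples and at 218, 23.1, 64.9 and 115 CPM in Cnp-Cre:Jab1flfl samples 1 to 4. Again sample 2 was far below the other mutant samples, just under the lowest wild-type sample (log2 fold change 1.81, edgeR adjusted p = 0.0666), and without it the change passed the threshold (2.13, edgeR adjusted p = 0.00868). Flt4 was at 0.152 to 5.28 CPM in wild-type and 3.27 to 27.7 CPM in Cnp-Cre:Jab1flfl samples (log2 fold change 2.67, edgeR adjusted p = 0.17). None of the PDGF receptor genes passed the threshold. Pdgfrb, the receptor of PDGF-B on mural cells, was at 97.4 ± 64.6 CPM in wild-type and 94.2 ± 17.5 CPM in Cnp-Cre:Jab1flfl samples (SD, n = 4, log2 fold change -0.05, 95% confidence interval -1.01 to 0.92, edgeR adjusted p = 0.966). Pdgfra, the receptor on oligodendrocyte precursors, was low and uneven, at 0 to 4.14 CPM and 0 to 14.2 CPM (log2 fold change 2.12, 95% confidence interval -1.79 to 6.04, edgeR adjusted p = 0.538). Pdgfrl, a receptor-like gene without a kinase, was at 6.05 to 10.9 CPM and 8.76 to 12.2 CPM (edgeR adjusted p = 0.752).

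In the double mutants 0 of the 8 receptor genes passed the threshold against wild-type by edgeR. There were 2 at an unadjusted p under 0.05, 2 by DESeq2 (Flt1 and Kdr) and 0 by limma-voom. The shares of all genes were 0.192% by edgeR, 12.4% unadjusted, 4.87% by DESeq2 and 0.265% by limma-voom. Against Cnp-Cre:Jab1flfl 0 passed by edgeR, DESeq2 and limma-voom, beside 0%, 0.491% and 0.00564% of all genes. At an unadjusted p under 0.05 there was 1 (5.0% of all genes). With so few genes called by edgeR, its counts of 0 are near the share of all genes. Flt1 was at 143, 189, 508 and 855 CPM in double mutant samples 1, 2, 3 and 5, just above the highest wild-type sample at its lowest, with a log2 fold change of 1.91 against wild-type (95% confidence interval 0.68 to 3.15, edgeR adjusted p = 0.201) and of -1.06 against Cnp-Cre:Jab1flfl (95% confidence interval -2.52 to 0.39, edgeR adjusted p = 0.996). Nrp2 was at 10.8 to 30.4 CPM, Nrp1 at 12.7 to 105 CPM and Kdr at 32.7 to 160 CPM, each highest or second highest in sample 5. Flt4, Pdgfra, Pdgfrb and Pdgfrl were at 4.01 to 14.2, 0.577 to 22.5, 39.5 to 126 and 6.28 to 19.0 CPM.

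**Figure D5:**
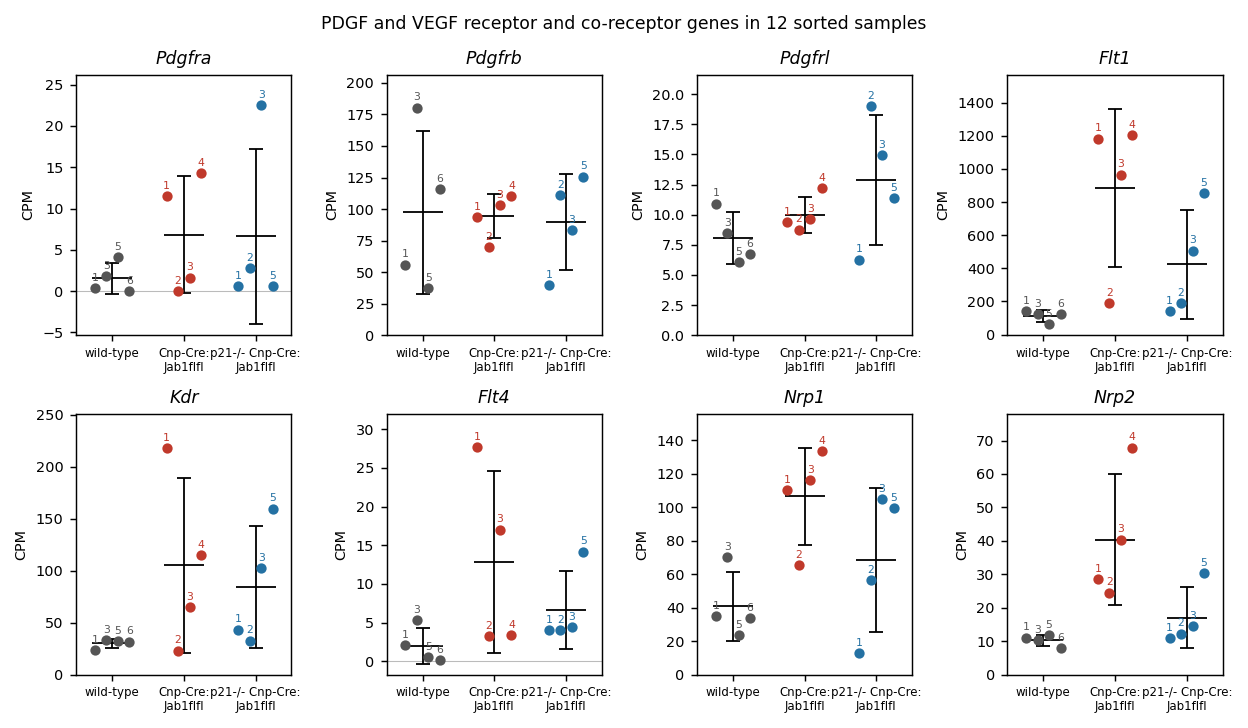
CPM of the 8 receptor and co-receptor genes in each of the 12 samples (linear axes), by genotype; horizontal lines are means, error bars SD (n = 4) and numbers the replicate numbers. Flt1 and Nrp2 are higher in all 4 Cnp-Cre:Jab1flfl samples than in any wild-type sample, with Flt1 from 190 to 1204 CPM against 61.2 to 142 CPM, whereas the Pdgfrb ranges overlap.

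Genes that release or process the latent ligands did not pass the threshold in any comparison (0 of 5 tested of 7 by edgeR). By edgeR 7.64%, 0.192% and 0% of all genes passed in Cnp-Cre:Jab1flfl against wild-type, double mutants against wild-type and between the mutants. In each comparison 1 of the 5 had an unadjusted p under 0.05, beside 22.5%, 12.4% and 5.0% of all genes in the same order. DESeq2 called 1 gene, Plau, in Cnp-Cre:Jab1flfl against wild-type and 0 in the others, beside 15.2%, 4.87% and 0.491%. Limma-voom called 0 throughout (10.8%, 0.265% and 0.00564% of all genes). The median log2 fold change was 0.40 in Cnp-Cre:Jab1flfl against wild-type, -0.21 in double mutants against wild-type and -0.14 between the mutants. Plat, the tissue plasminogen activator that cleaves PDGF-C, was the highest of them, at 139 to 267 CPM in wild-type, 134 to 357 CPM in Cnp-Cre:Jab1flfl and 300 to 424 CPM in double mutant samples. Pcsk7, a proprotein convertase, was at 31.2 to 58.2, 24.2 to 48.7 and 23.4 to 58.1 CPM. Plau was at 0.129 to 1.2, 1.32 to 6.09 and 0.15 to 0.743 CPM, with as few as 13 counts in wild-type sample 5. Its log2 fold change was 3.01 in Cnp-Cre:Jab1flfl against wild-type (edgeR adjusted p = 0.125). Between the mutants it was -3.22 (edgeR adjusted p = 0.902). Vegfd, a VEGF-C relative outside the 8 ligands, was at 0.119 to 4.42, 0 to 14.0 and 0 to 3.68 CPM, without passing the threshold in any comparison.

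The list of 8 genes of the HIF pathway, which induces Vegfa in hypoxia, mixes subunits of HIF with genes whose products restrain HIF. Its median log2 fold change in Cnp-Cre:Jab1flfl against wild-type was -0.54, beside 0.02 over all genes tested. Because of this mix the median gives no direction of the pathway. Of the 8 genes, 1 passed the threshold in this comparison, beside 7.64% of all genes. The gene was Epas1 (HIF-2 alpha, abundant in endothelial cells), at 73.8, 48.1, 28.0 and 43.4 CPM in wild-type samples 1, 3, 5 and 6 and at 209, 51.2, 161 and 359 CPM in Cnp-Cre:Jab1flfl samples 1 to 4. Sample 2 lay within the wild-type range (log2 fold change 2.01 ± 0.52, SE, edgeR adjusted p = 0.0389), and the call was lost under 10 of 17 alternatives. The part of cell composition in the Epas1 values was not tested. Hif1a, the ubiquitous alpha subunit, was at 62.6 to 90.5 CPM in wild-type and 31.8 to 67.7 CPM in Cnp-Cre:Jab1flfl samples (log2 fold change -0.54, edgeR adjusted p = 0.333). Of the hypoxia-induced genes 1 of 11 tested rose, beside 5.19% of all genes, with a median log2 fold change of 0.33. It was Hk2, a hexokinase, at 0.653 to 3.77 CPM in wild-type and 27.5 to 104 CPM in Cnp-Cre:Jab1flfl samples, without overlap (log2 fold change 5.0 ± 0.71, SE, edgeR adjusted p = 0.00331). The most abundant genes of that list were Ndrg1, at 556 to 1312 and 145 to 502 CPM (edgeR adjusted p = 0.0746), and the glucose transporter gene Slc2a1, at 271 to 446 and 264 to 1031 CPM (edgeR adjusted p = 0.332). For Hk2, Ndrg1 and Slc2a1 too, the part of cell composition was not tested. In both comparisons of the double mutants 0 of the 8 HIF pathway genes and 0 of the 11 hypoxia-induced genes passed the threshold by edgeR. The shares of all genes were 0.192% against wild-type and 0% between the mutants. Against wild-type 1 gene of each list had an unadjusted p under 0.05 (12.4% of all genes). DESeq2 called 0 and 1 there (4.87%) and limma-voom 0 and 0 (0.265%). Against Cnp-Cre:Jab1flfl 0 and 0 had an unadjusted p under 0.05 (5.0%), and DESeq2 (0.491%) and limma-voom (0.00564%) called none.

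Among all genes tested, those whose log2(CPM + 1) followed each ligand most closely over the 12 samples are given as a description; the samples share genotype, depth and cell composition. The genes most like Pdgfb were Trim14 (Pearson r = 0.967), Ebf1 (0.962) and Hic1 (0.959). Those most like Pdgfa were Plekhj1 (0.951), Gm6166 (0.939) and Utp18 (0.930), those most like Pdgfc were Fcor (0.931), Slc9a9 (0.905) and Dnajc6 (0.904), and those most like Pdgfd were Agbl4 (0.873), Jam2 (0.871) and Sh3rf1 (0.848). Vegfa was followed by Echdc2 (0.949), Sema5b (0.941) and Ccdc88c (0.926), Vegfb by Slc9a7 (0.861), Mttp (0.849) and Ttll12 (0.835), Vegfc by Vpreb1 (0.886), Sh2d6 (0.874) and Ubxn10 (0.862), and Pgf by Crispld1 (0.911), Zfp976 (0.887) and Bbs7 (0.842). No ligand was among the 3 genes most like another ligand.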

How the data were processed

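The authors trimmed paired-end SMART-Seq v4 reads with Trimmomatic (v0.32), used STAR (v2.5.3a) for alignment to GRCm38 and featureCounts with the basic GENCODE gene set for counting. They deposited unnormalised counts, listed by gene symbol, with no row outside the genes. Whether counting used strand is not given in the sources used here. From these counts CPM values with TMM factors over the 12 samples were computed for display. Genes reaching 1 CPM in 4 or more samples (17716, among them all 8 ligands) were tested with the quasi-likelihood test of edgeR (v4.0.16) in the 8 samples of the 2 genotypes compared, with Benjamini-Hochberg adjustment over all genes tested and a threshold of 0.05. CPM per kb used exonic lengths of GENCODE M21, to which 98.2% of the symbols matched. DESeq2 (v1.42.0), limma-voom (v3.58.1), other scalings, filters and sample sets were alternatives. Tested on simulated data for Cnp-Cre:Jab1flfl versus wild-type (17716 genes, 200 changed by 3 log2 units), edgeR recovered 56.5% of the changed genes with 3.4% false calls. DESeq2 recovered 74% with 33%, and limma-voom 48.5% with 1%. The simulated counts were drawn around wild-type means with dispersions estimated by edgeR itself, so these figures do not rank the methods on the real data.

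All ligands, all receptors and Vegfd were named. Of the other lists, genes past the threshold in any comparison and the 2 genes with the highest mean CPM were named, and the 3 genes with the highest Pearson r for each ligand. Plau was named after its values were seen. The ligands and lists were chosen with earlier results of these data known. Replicates of a genotype differed beyond sampling noise (lowest chi-square over its degrees of freedom, 211). They are separate pools of 2 brains, and the p-values measure the spread between these pools.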

Additional observations from a re-analysis of the deposited data

Results flagged for a closer look

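In the 24 groups of 4 samples formed by the 8 ligands and 3 genotypes, 3 held a sample far from the other samples, where chance flags about 1 in 20 groups. Pdgfd in Cnp-Cre:Jab1flfl sample 1 was at 45.4 CPM, its gap to the nearest sample making up 0.939 of the range of the group. Vegfb in wild-type sample 5 was the lowest of its group at 29.5 CPM (0.854 of the range). Vegfb in p21-/- Cnp-Cre:Jab1flfl sample 5 was the highest of its group at 51.3 CPM (0.888 of the range).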

How the results depend on the processing

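Over 3 comparisons the log2 fold changes of the 8 ligands were recomputed with DESeq2, limma-voom, 3 other scalings, 2 other filters, all 12 samples in one fit, the replicate block, each sample left out and an exact permutation test. Pdgfb in Cnp-Cre:Jab1flfl versus wild-type passed the threshold under all 18 alternatives (2.84 to 3.54). The permutation test among them was judged by its unadjusted p, 0.0286, the smallest value it can give. In double mutants versus wild-type, DESeq2 called 1 ligand (Pdgfb, 2.41), 2 receptor genes and 1 hypoxia-induced gene, where edgeR called none of these. DESeq2 called 4.87% of all genes there. In Cnp-Cre:Jab1flfl versus wild-type, DESeq2 called 5 receptor, 1 processing and 3 hypoxia-induced genes, and 3 hypoxia-induced genes were also called with a mean of at least 10 CPM and by limma-voom. The HIF pathway count of 1 (Epas1) fell to 0 without a filter, with all 12 samples in one fit and with the replicate block. Leaving out each sample gave 2 to 4 receptor genes, 0 to 1 HIF pathway genes and 1 to 3 hypoxia-induced genes, with Epas1 kept without Cnp-Cre:Jab1flfl sample 2 alone and 3 hypoxia-induced genes called without that sample.

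The same-numbered samples of the genotypes did not vary together (r from -0.188 to 0.083 in 8 pairs), so the replicate block shares only a number. With it, 1 receptor gene was called in Cnp-Cre:Jab1flfl versus wild-type, Pdgfb was at 3.54, and the sign turned for Pdgfa (0.13) and Pgf (0.039) between the mutants and for Pgf (0.049) in Cnp-Cre:Jab1flfl versus wild-type.

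The other changes of sign concerned ligands that passed no threshold, and the cause was not tested. Between the mutants limma-voom gave 0.093 for Pdgfa, -0.92 for Pdgfc and 1.02 for Vegfc, and the permutation test 0.44 for Vegfc. Vegfb in double mutants versus wild-type was at -0.025 without a filter, and Pgf in Cnp-Cre:Jab1flfl versus wild-type at 0.03 with a mean of at least 10 CPM. Leaving out each sample in Cnp-Cre:Jab1flfl versus wild-type gave -0.63 to 0.50 for Pdgfd and -0.40 to 0.19 for Pgf. In double mutants versus wild-type it gave -0.035 to 0.44 for Pdgfa, -0.44 to 0.011 for Pdgfd and -0.10 to 0.11 for Vegfb. Between the mutants it gave -0.30 to 0.14 for Pdgfa, -0.21 to 0.95 for Pdgfc, -0.72 to 0.44 for Pdgfd, -0.59 to 0.87 for Vegfc and -0.86 to 0.017 for Pgf. The intervals of Vegfc and Pdgfc span several log2 units, so their differences are known with low precision.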
